A study of Homo sapiens with 3 samples.

Results

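The MYC and PVT1 locus at 8q24 was described as 1 stretch of chromosome 8, chr8:127900000-129200000 in the hg19 build. It was chosen for its genes and not for any measured value, though earlier results of these data were known. Every EPIC2 region and every MACS2 summit of that stretch was taken. EPIC2 is a caller of broad, diffuse enrichment, and a MACS2 summit is the single base at which a narrow peak is highest. Over 3 replicates the locus held 291 of the 18404 EPIC2 regions of chromosome 8 and of 247794 in the whole series, and 341 of the 27227 summits of chromosome 8 and of 443480 in all. Within the locus, MYC lies at chr8:128748315-128753680 on the plus strand and PVT1 at chr8:128806779-129113499. An upstream flank poor in genes spans chr8:127900000-128740000.

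The calls come from short nascent strand sequencing (SNS-seq), in which newly made DNA strands still carrying their RNA primer are protected from lambda exonuclease and sequenced, so that enriched places mark starts of DNA replication. The cells were HCT116, a human cell line established from a colorectal carcinoma and grown in RPMI medium, which received no treatment. Its 3 replicates form 1 group. The study's methods call them experiments done in triplicate. No source used here says how far they were separate from the culture on. The p-values measure only how far these 3 samples agree in direction, with larger values counting more. The files hold calls and no reads, so that depth is unknown and the identity of the cells could not be checked against markers.

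MYC encodes a transcription factor that drives cell growth and division and is a frequently deregulated oncogene. DNA upstream of it is a classic example of a mammalian replication origin, studied long before genome-wide maps existed. PVT1, its downstream neighbour, gives a long non-coding RNA and is often gained together with MYC in tumours. Origins in human cells tend to lie in broad initiation zones in which different cells fire at different places, so that a broad region and a sharp summit describe different properties of the same zone.

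Replicate 2 carried fewer calls than the others, which touches all results here. The locus held 107, 70 and 114 EPIC2 regions in replicates 1, 2 and 3. It held 148, 48 and 145 summits in the same order. Regions had a median width of 2200, 4000 and 3300 bases in the locus, against 1600, 3200 and 3400 bases on the rest of chromosome 8. The rest of the chromosome means its other 1 Mb windows with at least 1 call, 142.7 Mb together. Wider regions than on the rest of the chromosome were thus found in replicates 1 and 2 and not in replicate 3.

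**Figure D1:**
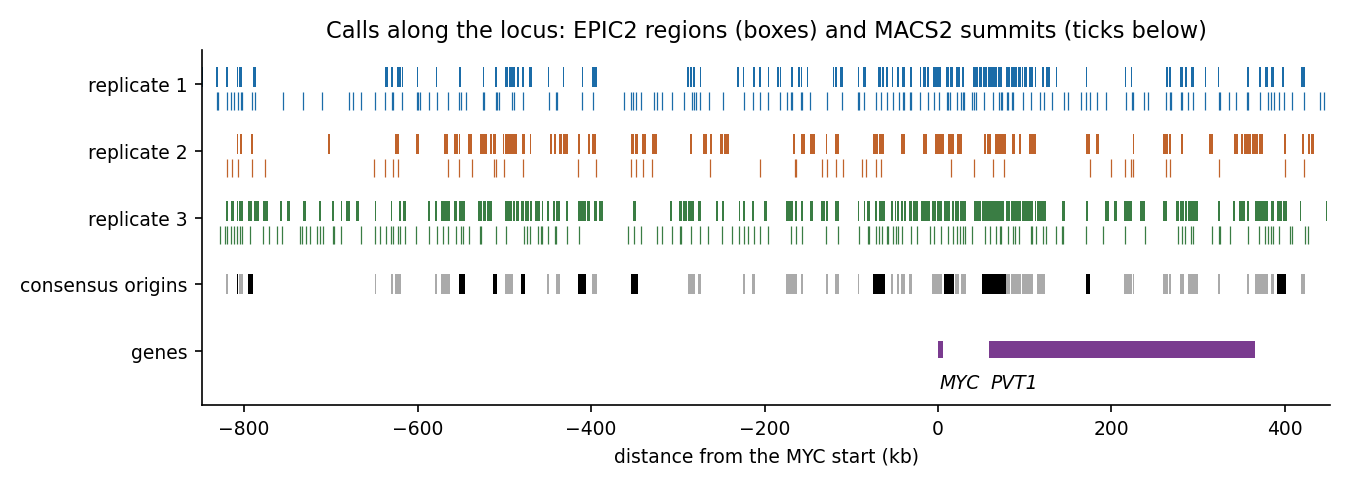
Calls along the locus, with distance from the MYC start in kb on the horizontal axis. Boxes are EPIC2 regions and ticks below them MACS2 summits of each replicate. Consensus origins are black where all 3 replicates contributed and grey where 2 did. Calls are spread over the whole locus. EPIC2 coverage is highest in the 50 kb step that holds the PVT1 start, whereas summits of replicate 2 are not most numerous there.

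MYC itself was touched by an EPIC2 region in all 3 replicates. In replicate 1 a region of 9.4 kb, chr8:128742401-128751800, began upstream of the gene and covered 65.0% of it. A region of the same width in replicate 2, chr8:128745401-128754800, covered the whole gene. In replicate 3 the region chr8:128747201-128752800, 5.6 kb wide, covered 83.6% of the gene, and a separate region of 5.2 kb, chr8:128741001-128746200, lay upstream of it. All these regions ranked high among the regions of chromosome 8 of their own replicate by EPIC2 score, at percentiles of 98.0 in replicate 1, 96.8 in replicate 2, and 94.0 and 93.3 in replicate 3.

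Touching a region is common for a stretch of this length. Of windows of the length of MYC tiled along chromosome 8, 31.8% touched a region of replicate 1, 24.5% one of replicate 2 and 33.9% one of replicate 3. All 3 replicates had a region in 12.5% of these windows, and in 20.3% of those on the long arm beyond 67 Mb. Being covered to the same extent was rarer. Out of 26593 windows, 1269 were covered at least as much as MYC in replicate 1, 221 in replicate 2 and 1538 in replicate 3. Most of these lay on the long arm beyond 67 Mb, with 1094, 213 and 1338 of its 14665 windows.

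Summits gave a weaker picture of MYC than regions did. Replicate 1 had 1 summit in the gene, at position 128749920, and replicate 3 had 1 at 128752316, while replicate 2 had none. Windows of the same length held a summit in 38.7%, 13.6% and 34.6% of cases in replicates 1, 2 and 3. A window with a summit was thus common on this chromosome in replicates 1 and 3, and rarer in replicate 2. The summits also differed in place within the gene, at 1605 bases from its start in replicate 1 and 4001 bases in replicate 3.

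Upstream of MYC the same pair of replicates had summits less than 250 bases apart. These were at position 128744068 in replicate 1 (−4247 bases from the start) and at 128744189 in replicate 3 (−4126 bases from it). The score, taken to be −log10 of the q-value, was 17.0 at the summit of replicate 1 and 4.43 at that of replicate 3. These scores placed the summit of replicate 1 at percentile 94.1 of its chromosome 8 list and that of replicate 3 at percentile 51.3. Replicate 3 had a further summit at 128738740 with a score of 2.04, inside a region of 1.4 kb, chr8:128738201-128739600. Replicate 2 had no summit within 10 kb upstream of the gene.

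Behind the gene the replicates met again. Replicate 1 had a region of 4 kb, chr8:128757401-128761400, with summits at 128758371 and 128760263, and a narrow region, chr8:128762201-128762800, with a summit at 128762415. Replicate 3 had a region of 7.2 kb, chr8:128754801-128762000, with its summit at 128760294, less than 250 bases from that of replicate 1. Replicate 2 had a region of 6.8 kb, chr8:128760401-128767200, with a summit at 128762769. That summit was the nearest to the MYC start in replicate 2, 14454 bases away. The remaining call near the end of the gene was a region of 2.4 kb in replicate 1, chr8:128763601-128766000, which held no summit.

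Distances from the MYC start to the nearest summit were 1605, 14454 and 4001 bases in replicates 1, 2 and 3. Positions taken every 1 kb along chromosome 8 were as near to a summit of the same replicate in 25.4%, 52.1% and 46.6% of cases. For the PVT1 start the distances were 4761, 4687 and 1147 bases, and 57.1%, 22.4% and 16.4% of positions were as near. Neither gene start was thus nearer to a summit than most positions of the chromosome in every replicate.

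**Figure D2:**
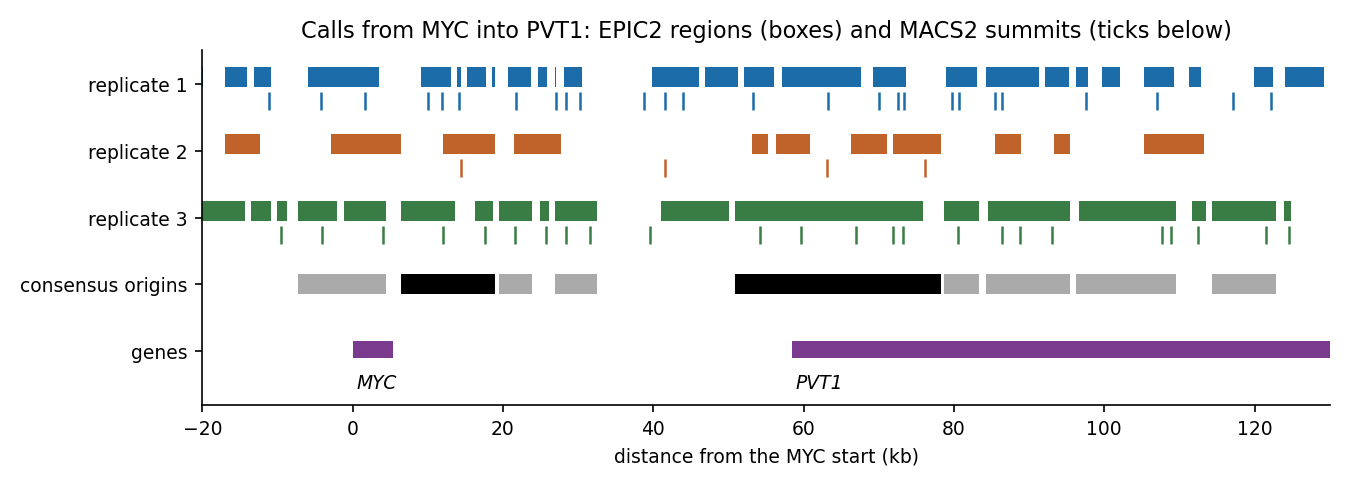
Calls from just before MYC into the first part of PVT1, with distance from the MYC start in kb on the horizontal axis and the same symbols as in the map of the whole locus. Regions of all 3 replicates overlie MYC and the start of PVT1, whereas replicate 2 has no summit in MYC.

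The start of PVT1 lay inside an EPIC2 region in each replicate. Replicate 1 had a region of 10.6 kb there, chr8:128805401-128816000, which was its widest in the locus. Replicate 2 had a region of 4.6 kb, chr8:128804601-128809200. Replicate 3 had a region of 25 kb, chr8:128799201-128824200, with 5 summits, the widest region of that replicate in the locus and at rank 14 by width on chromosome 8. The score percentile of these regions was 97.3, 68.6 and 99.8, so that the region of replicate 2 stood apart from the others in both width and rank. In replicate 2 the widest region of the locus was instead the one over MYC.

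A summit of replicate 1 at 128811540 and one of replicate 2 at 128811466 lay less than 250 bases apart just inside PVT1. The region of replicate 2 at the PVT1 start did not reach this place and held no summit. Replicate 3 had its nearest summit at 128807926, closer to the start of the gene.

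The interval between MYC and PVT1, 53.1 kb long, was among the most densely covered parts of the locus. EPIC2 regions of replicates 1, 2 and 3 covered 56.8%, 34.8% and 70.4% of it. The upstream flank was covered to 14.8%, 19.7% and 32.0% in the same order, so that the interval exceeded the flank in every replicate, by a mean ratio of 2.60 ± 1.10 (SD, n = 3). Coverage at least as high in all 3 replicates was found in 2.23% of windows of this length on chromosome 8 and in 4.05% of those on the long arm beyond 67 Mb. It held 11, 2 and 8 summits, of which 10, 1 and 7 were inside regions.

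PVT1 as a whole was covered to 23.0%, 23.1% and 40.5% by regions of replicates 1, 2 and 3. These values were 1.33 ± 0.202 (SD, n = 3) times those of the flank and 2.14 ± 0.152 (SD, n = 3) times those of the rest of chromosome 8. As much coverage in all 3 replicates was seen in 10.8% of windows of its length on the chromosome and in 19.6% of those beyond 67 Mb. PVT1 held 39, 10 and 30 summits in replicates 1, 2 and 3. The summit density relative to the flank was 1.24 in replicate 1 and below 1 in the others, with 0.805 and 0.865, so that no common direction was seen.

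Coverage of PVT1 was uneven along its length. In its first 50 kb, regions covered 70.4%, 44.8% and 89.6% in replicates 1, 2 and 3. In the remainder of the gene they covered 13.8%, 18.8% and 30.9%, which is 0.951 ± 0.0165 (SD, n = 3) times the coverage of the flank. The higher coverage of PVT1 thus lay in the part of the gene nearest to MYC. This division was made after the values along the locus had been seen, and it was not tested.

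From the start of MYC to the end of PVT1 the coverage was 28.6%, 25.9% and 45.5%, against the flank values of 14.8%, 19.7% and 32.0%. All 3 replicates were higher, with a mean ratio of 1.56 ± 0.330 (SD, n = 3, exact 2-sided sign-flip permutation p = 0.25). This is the smallest p that 3 replicates allow, so that no comparison here could pass a threshold of 0.05. The number of regions per Mb gave no such difference, with 104, 54.8 and 79.4 against 73.8, 51.2 and 92.9 in the flank. Its mean log2 ratio was 0.12 ± 0.36 (SD, n = 3, exact sign-flip permutation p = 0.75), smaller than the spread between replicates. Without replicate 1 it was −0.0641. Summits per Mb differed by a mean log2 ratio of 0.02 ± 0.39 (SD, n = 3, exact sign-flip permutation p = 1). The stretch with the genes was thus more covered than the flank in each replicate when all regions were used, whereas numbers of regions and summits had no direction common to all replicates. With only the regions that held a summit of their own replicate, replicate 2 turned, at 7.50% against 8.88% in the flank, and the mean log2 ratio was 0.48 ± 0.65 (SD, n = 3, exact sign-flip permutation p = 0.5).

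**Figure D3:**
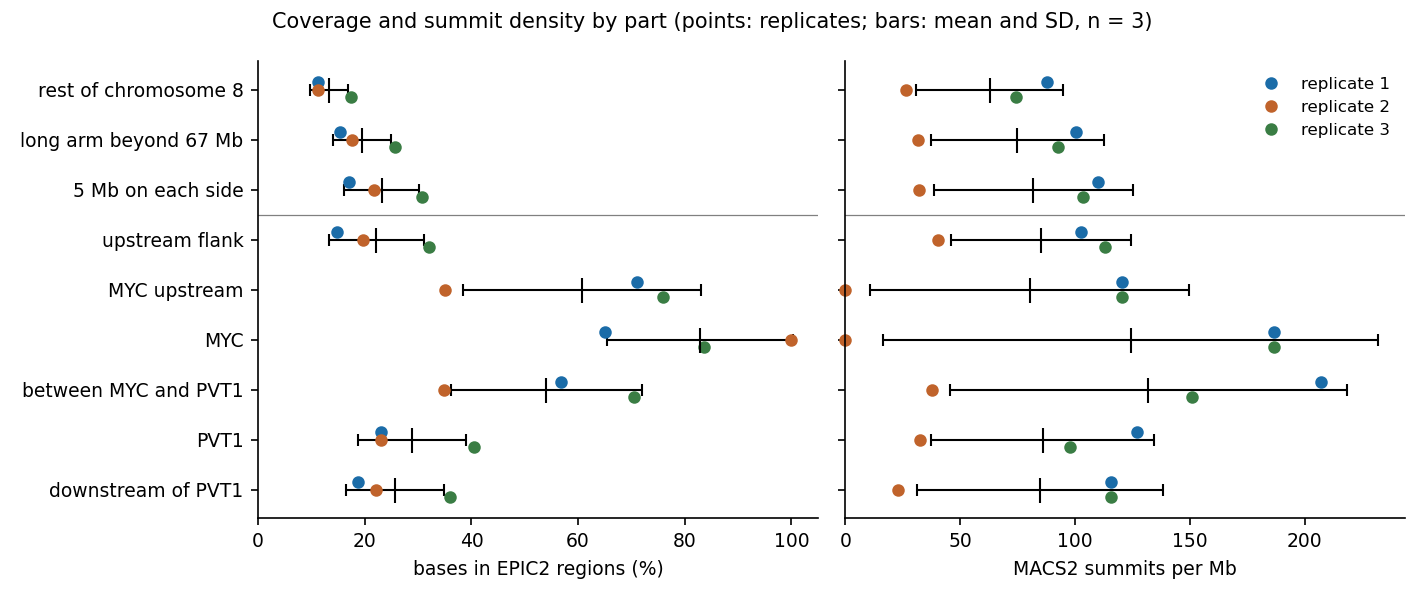
Percent of bases in EPIC2 regions (left) and MACS2 summits per Mb (right) in each part of the locus, below the grey line, and on the surrounding chromosome, above it. Coloured points are the 3 replicates and black bars the mean and SD. MYC, the 8.3 kb before it (MYC upstream) and the interval to PVT1 have higher coverage than the flank in all 3 replicates, whereas summit densities overlap.

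Steps of 50 kb from the MYC start showed where coverage was concentrated. The first step after the start was covered to 54.0%, 39.0% and 68.4% in replicates 1, 2 and 3, and the next, which holds the PVT1 start, to 73.2%, 47.2% and 88.0%. This second step was the most covered of the 25 in each replicate. Coverage was lower at 150 to 200 kb, within PVT1, with 2.4%, 18.4% and 14.0%. Before MYC, the step that ends at the gene start was covered to 39.0%, 24.6% and 67.4%, so that replicates 1 and 3 were already high there and replicate 2 was closer to its flank level.

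In the flank, a step with much coverage ran from −500 to −450 kb, with 33.6%, 36.8% and 63.4%. In the step from −700 to −650 kb, replicates 1 and 2 had no region at all, while replicate 3 was covered to 26%. These places held 3, 1 and 7 summits and 3, 1 and 4 summits in replicates 1, 2 and 3, so that summits followed coverage only loosely. The longest stretch of the locus without a call in any replicate was 24.4 kb, chr8:128362001-128386371, also in the flank.

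**Figure D4:**
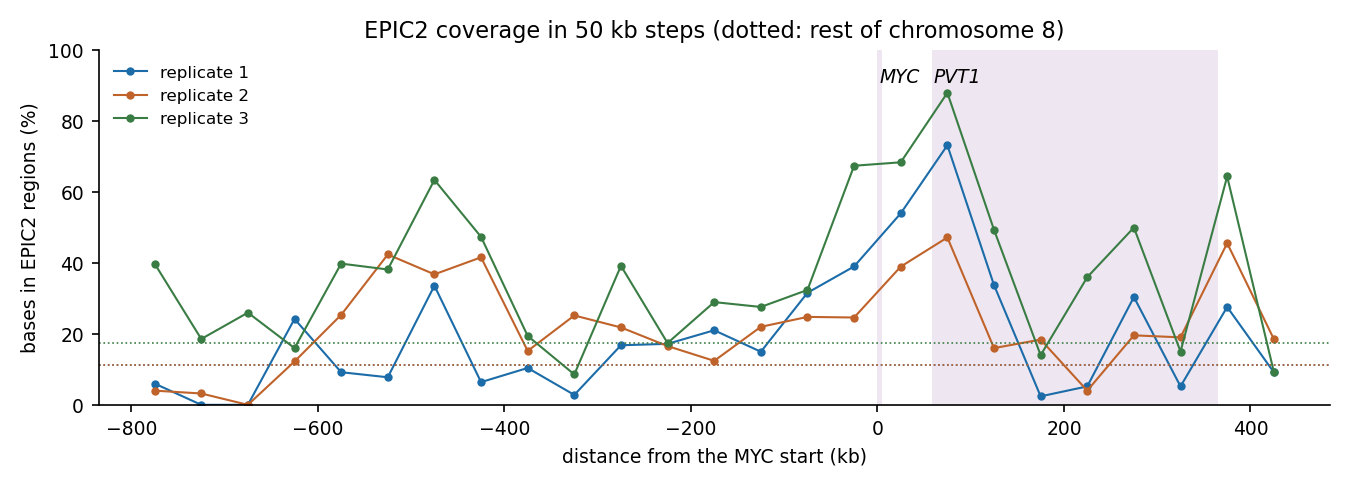
Percent of bases in EPIC2 regions in steps of 50 kb, by replicate, against distance from the MYC start in kb. Shaded spans are MYC and PVT1, and dotted lines the level of each replicate on the rest of chromosome 8. All replicates have their highest step at 50 to 100 kb, at 73.2%, 47.2% and 88.0%.

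The whole locus was then set against the rest of chromosome 8. EPIC2 regions of replicates 1, 2 and 3 numbered 81.5, 53.1 and 87.7 per Mb, against 52.4, 31.1 and 43.4 on the rest of the chromosome. The locus was higher in 3 of 3 replicates, with a mean ratio of 1.76 ± 0.236 (SD, n = 3, exact sign-flip permutation p = 0.25). Summits numbered 114, 36.9 and 112 per Mb, against 87.8, 26.5 and 74.1, a ratio of 1.40 ± 0.104 (SD, n = 3, exact sign-flip permutation p = 0.25). Regions covered 19.3%, 21.7% and 36.4% of the locus, against 11.3%, 11.2% and 17.5%, a ratio of 1.91 ± 0.187 (SD, n = 3, exact sign-flip permutation p = 0.25). Within a replicate, all these values were higher in the locus, and the excess in coverage was larger than that in summits. All are calls per length of the reference, and copy number along chromosome 8 was not measured here.

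The excess was smaller against the surroundings. The long arm beyond 67 Mb, in which the locus lies, had more calls than the chromosome as a whole, and against it the ratios were 1.27 ± 0.145 for regions, 1.17 ± 0.0362 for summits and 1.30 ± 0.103 for coverage (SD, n = 3). Against the 5 Mb on each side of the locus they were 1.04 ± 0.122, 1.09 ± 0.0626 and 1.11 ± 0.0951 (SD, n = 3). With these neighbours as reference the coverage ratio of replicate 2 was 0.999 and its ratio of region numbers 0.918, so that the locus was not higher in all replicates. Windows of the length of the locus were covered at least as much in all 3 replicates in 12.8% of cases on chromosome 8 and in 23.7% of cases beyond 67 Mb.

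**Figure D5:**
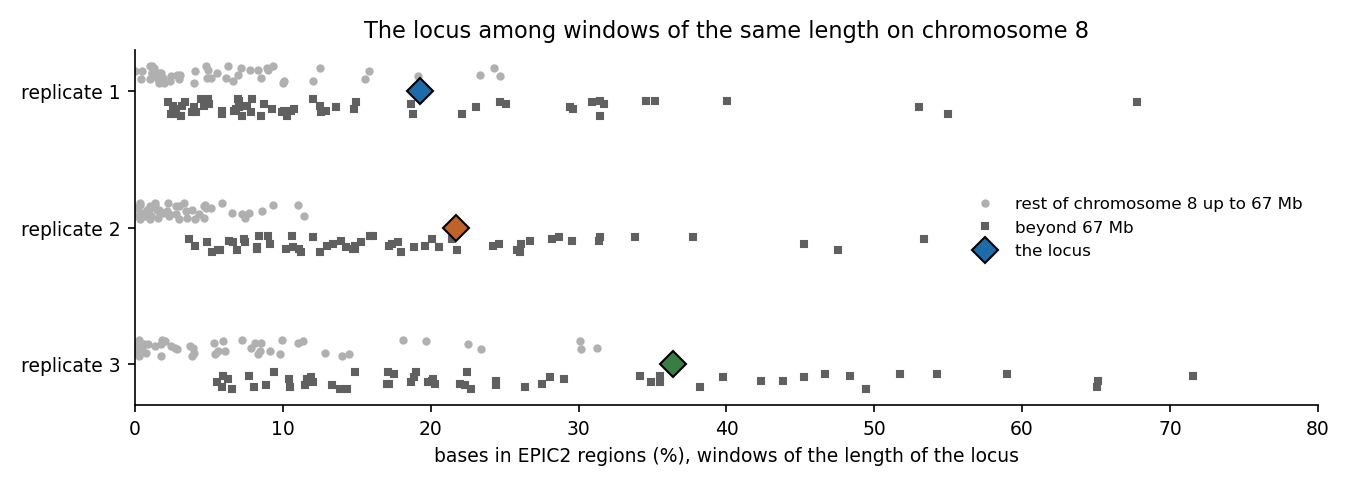
Percent of bases in EPIC2 regions in windows of 1.3 Mb, the length of the locus, by replicate. Light circles are windows of chromosome 8 up to 67 Mb, dark squares windows beyond it, and diamonds the locus, coloured by replicate. The locus lies at 19.3%, 21.7% and 36.4%, in the upper part of the windows, while 14 of 109 windows are covered at least as much in all 3 replicates.

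Scores told regions and summits apart. The median region of the locus was at percentile 54.7, 55.8 and 55.7 of the EPIC2 scores of chromosome 8 in replicates 1, 2 and 3, and that of the rest at 49.9 in the mean. The locus was higher by 5.51 ± 0.594 points (SD, n = 3, exact sign-flip permutation p = 0.25). Summits of the locus had a median percentile of 50.9, 38.1 and 49.1, and a mean difference from the rest of −3.98 ± 6.99 points (SD, n = 3, exact sign-flip permutation p = 0.75). Replicate 2 alone set this difference, which was 0.0240 points without it. The median summit score was 5.26, 2.75 and 4.28 in the locus and 5.14, 3.30 and 4.34 on the rest of the chromosome.

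The highest summit of each replicate lay in the flank and not at either gene. At 840 kb the flank is also longer than the 365 kb from MYC to PVT1. Replicate 1 had it at 128676850 with a score of 27.3, 71.5 kb before the MYC start. In replicate 2 it was at 128196552 with a score of 37.9, and in replicate 3 at 128299160 with a score of 23.1. These were 3 different places. Replicate 2 had a summit of nearly the same score, 37.1, within PVT1. The region with the highest EPIC2 score was that over MYC in replicate 1, one of 2 kb within PVT1 in replicate 2, chr8:128972601-128974600, and the region at the PVT1 start in replicate 3.

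Since the study kept origins found by both callers, the regions that held a summit of their own replicate were counted, and these are called common regions. The study's rule was another one, namely any overlap between peaks of the 2 callers. Here a MACS2 peak that overlapped a region with its summit outside that region did not count. They made up 77.4%, 42.0% and 74.6% of the regions of the locus in replicates 1, 2 and 3. On the rest of chromosome 8 they made up 82.3%, 42.1% and 72.7%. The mean difference was −1.05 ± 3.48 points (SD, n = 3, exact sign-flip permutation p = 0.75), which is within the spread between replicates. In the opposite direction, 70.3%, 62.5% and 74.5% of summits of the locus lay in a region, against 60.6%, 54.2% and 53.7% on the rest of the chromosome, where regions also cover less. The long arm beyond 67 Mb had 66.6%, 62.8% and 61.9%, and the 5 Mb on each side 68.4%, 69.9% and 66.5%. Replicate 2 of the locus was thus not higher than either.

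Common regions of the locus overlapped one of another replicate in 75.6%, 82.8% and 62.4% of cases in replicates 1, 2 and 3. The rest of chromosome 8 gave 56.9%, 77.9% and 59.0%. The locus was higher in 3 of 3 replicates, by 8.96 ± 8.45 points (SD, n = 3, exact sign-flip permutation p = 0.25). After leaving out replicate 3 the difference was −4.06 points. It was 4.90 ± 5.12 points against the long arm beyond 67 Mb and 4.73 ± 3.70 points against the 5 Mb on each side (SD, n = 3). With equal numbers of calls per replicate it was 2.65 ± 8.14 points (SD, n = 3), and replicates 1 and 2 turned. Against the rest of chromosome 8 the difference was largest in replicate 1, with 18.7 points. Of the 82 common regions of replicate 1, 68.3% overlapped one of replicate 3, against 54.9% beyond 67 Mb and 46.5% on the rest of the chromosome. For overlap with replicate 2 the share was 23.2%, against 23.0% on the rest. In the other sense, 55.3% of the 85 common regions of replicate 3 overlapped one of replicate 1, against 55.7%. Of the 29 of replicate 2, 62.1% overlapped one of replicate 1, against 70.4%, and 62.1% one of replicate 3, against 46.6%. Regions also covered more of the locus than of the rest, and the part of this in the overlap was not tested.

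Common regions were merged over replicates, and those held by at least 2 of 3 replicates are called consensus origins. The locus had 55, or 42.3 per Mb, against 21.1 per Mb on the rest of chromosome 8 and 29.1 per Mb beyond 67 Mb. They covered 25.9% of the locus and 11.8% of the rest. Their median width was 4600 bases, against 4200, and the median gap between neighbours 8000 bases, against 12000. These are single values with no replicate error. The ratio of the densities in the locus and on the rest of the chromosome was 2.01. The number itself depended on single libraries, but leaving out 1 also made the rule stricter, as both others then had to hold an origin. The locus had 17 consensus origins (13.1 per Mb) without replicate 1, against 5.49 per Mb on the rest. It had 17 without replicate 3, against 8.79 per Mb. The locus had the higher density in both cases, by ratios of 2.38 and 1.49.

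All 3 replicates contributed to 12 of the 55, which is 21.8%, against 22.6% on the rest of the chromosome. Replicates 1 and 3 alone made up 33 of them. Replicate 1 contributed to 90.9%, replicate 2 to 40.0% and replicate 3 to 90.9%, against 96.5%, 44.4% and 81.8% on the rest. By midpoint, 33 lay in the flank, 1 just before MYC, 3 between MYC and PVT1, 14 in PVT1 and 4 beyond it.

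The consensus origin over MYC, chr8:128741001-128752800, was 11.8 kb wide and covered 83.6% of the gene and 88.0% of the stretch between the flank and the gene. It rested on replicates 1 and 3 alone. Replicate 2 had its region over MYC too, but with no summit in it, and so did not count towards this origin under the summit rule used here. Whether it would count under the study's rule of any overlap was not tested.

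Consensus origins were ranked by a mean percentile of EPIC2 score. Each replicate entered with its highest-ranked region touching the origin, with or without a summit, so origins of several regions could rank higher. Among consensus origins of all 3 replicates, that with the highest mean percentile, 97.0, was the one at the PVT1 start, chr8:128799201-128826600. It was 27.4 kb wide and held 4, 4 and 1 regions and 5, 2 and 5 summits in replicates 1, 2 and 3. The next, at 93.3, was chr8:128754801-128767200 just behind MYC, 12.4 kb wide, with 4, 1 and 2 regions and 3, 1 and 2 summits. Both ends of the interval between the genes thus overlapped an origin of all 3 replicates. At the PVT1 end, replicate 2 counted only through a region inside PVT1, 71.9 to 78.3 kb after the MYC start, with its summit at 76.1 kb. Its region at the PVT1 start held no summit, and its other summit in this origin lay in none of its regions. Replicate 2 entered the mean with a percentile of 94.0, whereas its region at the PVT1 start was at 68.6.

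The flank held the next origins in this order. The first, chr8:128673001-128687400 with a mean percentile of 91.3, included the highest summit of replicate 1. The second, chr8:128196201-128202600 with 90.0, included the highest summit of replicate 2, whose score of 37.9 stood against 10.8 in replicate 1 and 9.75 in replicate 3. The third was chr8:128267801-128272600 with 88.5, and its top summits scored 8.82, 18.0 and 5.67 in replicates 1, 2 and 3.

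Lower percentiles were found for chr8:128394401-128402200 with 60.7, chr8:128235201-128239600 with 57.2 and chr8:128333001-128343000 with 54.4 in the flank. In PVT1, chr8:128918601-128924000 had 45.8, and beyond it chr8:129139401-129149600 had 36.2. Origins of all 3 replicates therefore covered a wide range of score ranks, and 5 of the 12 had a mean percentile over 88.

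Sharp positions shared by all 3 replicates were few. In 6 places, 1 summit of each replicate lay within 250 bases, which is 4.62 per Mb, against 3.50 per Mb on the rest of chromosome 8 and 5.06 per Mb beyond 67 Mb. The closest set was 127933652, 127933707 and 127933664 in replicates 1, 2 and 3, spanning 55 bases, with scores of 4.45, 1.21 and 5.47. Another set, at 128238381, 128238388 and 128238463, spanned 82 bases.

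Of the other sets in the flank, one lay at 127928343, 127928342 and 127928174, one at 128183859, 128183617 and 128183777, and one at 128542713, 128542712 and 128542907. The last had scores of 25.0, 4.48 and 3.40. A single set was in PVT1, at 129072198, 129072273 and 129072373, with scores of 21.0, 4.20 and 7.18. No set lay in MYC or between the genes.

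The comparisons with a test numbered 10. After Benjamini-Hochberg adjustment over them, the smallest exact permutation p was 0.417.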

How the data were processed

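SNS-seq calls of 3 replicates of untreated HCT116 were used. Per the labels and the study's methods, the authors mapped reads to the hg19 build (Bowtie2 2.3.4.2), dropped duplicates (Picard 2.18.17) and made calls per replicate with MACS2 2.1.0.20151222 (q-value limit 0.1) and EPIC2 (false discovery limit 0.1). No source used here names the control for calling. In the deposited EPIC2 lists each region has a score of unstated kind, used only as a rank within a replicate. The deposited MACS2 score was taken to be −log10 of the q-value, since its lowest value, 1.00, matches the limit.

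Coordinates are 1-based hg19, and gene limits are those given with the locus. The reference at hand is of another build and was not used, so exons, promoters and sequences are not given. Regions were counted by midpoint per Mb, except the 107, 70 and 114 that touch the locus (106, 69 and 114 by midpoint). Values are means ± SD over replicates, tested by exact 2-sided sign-flip permutation. Window shares are descriptions of chromosome 8. The long arm limit of 67 Mb and the gene parts were set, like the locus and the rule for named calls, with earlier results of these data known. Named were all calls within 10 kb of MYC, up to 10 consensus origins of all 3 replicates, the highest summits, widest regions and shared summits, and the longest empty stretch. The regions with the highest EPIC2 score, calls around the PVT1 start and the steps of 50 kb were named after their values were seen.

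Alternatives were another reference part of the chromosome or of the genome, a q-value of 0.01 and the upper 50% of EPIC2 scores. Others were common regions as the unit, equal numbers of regions and of summits per replicate, a reciprocal overlap of 50%, and leaving out each replicate. The functions were tested on simulated calls. Python 3.11.15, numpy 2.4.6 and pandas 2.3.3 were used.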

Additional observations from a re-analysis of the deposited data

How the results depend on the processing

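The direction of the mean was kept under all alternatives run for the excess of the locus in region density (mean log2 ratio 0.0468 to 1.38), summit density (0.122 to 0.713), coverage (0.141 to 1.57) and EPIC2 score rank (2.75 to 6.76 points), with the lowest density and coverage values against the 5 Mb on each side, and for the coverage of MYC to PVT1 over the flank (0.450 to 1.15). Replicate 2 alone turned against the 5 Mb on each side (regions and coverage) and, for MYC to PVT1, with common regions as the unit. Other results changed, and the cause was not tested. Region density of MYC to PVT1 over the flank was −0.10 with common regions as the unit and −0.0641 to 0.296 on leaving out 1 replicate, and summit density −0.192 to 0.183. The share of regions with a summit differed by 0.599 points against the long arm beyond 67 Mb, by 3.03 against the 5 Mb on each side, and by −2.51 to 0.874 on leaving out 1 replicate. The summit score rank was 3.38 points at a q-value of 0.01 and −6.43 to 0.0240 on leaving out 1 replicate. The share of common regions found in another replicate was −1.16 points with a reciprocal overlap of 50% and −4.06 to 10.7 on leaving out 1 replicate. The 55 consensus origins became 35 with the upper 50% of EPIC2 scores and 28 with reciprocal overlap. With equal numbers of regions and of summits they became 25. They became 17 (without replicate 1 or 3) to 46 (without replicate 2), where both remaining replicates had to hold an origin. Over these alternatives, the ratio of their density to that on the rest of chromosome 8 was 1.49 to 2.38. Each tested difference was taken within a replicate, and with 1 group no other pairing exists. Depth is unknown, so a place without a call, such as MYC without a summit in replicate 2, may not have been detectable.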

Other observations

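Another stretch of high coverage lay around the end of PVT1. The step of 350 to 400 kb after the MYC start was covered to 27.6%, 45.6% and 64.4% in replicates 1, 2 and 3, and the steps beside it to 5.2%, 19.0% and 15.0% before and 9.2%, 18.6% and 9.37% after. It held 8, 1 and 7 summits. In this step replicate 2 was more covered than replicate 1, unlike in the 3 steps around MYC and the PVT1 start. The same order held in other steps, such as −500 to −450 kb in the flank, at 36.8% against 33.6%. A consensus origin of replicates 1 and 3, chr8:129113601-129129000, lay there and was 15.4 kb wide. This stretch was picked after its values were seen.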
